A study of Mus musculus with 18 samples.

Results

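Tumours driven by ErbB2 in the mouse mammary gland were compared between models: 5 single tumours with the genotype ErbB2 knock-in (KI) against 2 pools of NIC tumours. The KI tumours gave 5 of the 9 RNA samples of the series and the NIC pools 2, which together make 14 of its 18 arrays, and 2 normal glands gave the other 4 arrays. Samples were taken by these labels, and each RNA sample stands for the mean of its 2 arrays with exchanged dyes. All mice were on the FVB/N background. Every RNA came from whole frozen tumour tissue and shared an Agilent 2-colour array with a commercial reference RNA of mouse cells. A NIC pool holds equal amounts of 5 tumours, whereas each KI sample is a single tumour. Ages, litters and passages are not given in the labels, so p-values speak for the spread among these samples alone.

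ErbB2 (HER2, called Neu in the rat) is a receptor tyrosine kinase without a ligand of its own that signals in pairs with EGFR, ErbB3 or ErbB4, mostly through RAS-ERK and PI3K-AKT. As background on the models, NIC mice carry a transgene in which the MMTV promoter, active in mammary epithelium, drives an activated rat Neu and the Cre recombinase from a single transcript. Knock-in mice express an activated ErbB2 from the endogenous Erbb2 promoter once Cre has removed a stop element, and tumours of such mice are known for extra copies of the locus. The title of the series concerns β-catenin, which enters the nucleus when Wnt ligands stop the destruction complex (Axin, APC, GSK3) from degrading it. There it works with TCF/LEF factors on targets such as Axin2.

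The measured quantity is the deposited log2 ratio of tumour over reference RNA, so that a difference of 1 is a 2-fold change. Below, values are listed for KI tumours 1 to 5 in that order and then for NIC pools 1 and 2, and differences are KI minus NIC with the standard error of limma's fit (5 KI tumours and 2 NIC pools, adjusted p by Benjamini-Hochberg over all genes). KI and NIC arrays lie in different tables with different platform records, so the KI group cannot be told apart from its table or its platform record.

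Of 28919 genes, limma called 1792 (6.2%) at an adjusted p under 0.05, 843 higher (2.92%) and 949 lower (3.28%) in KI tumours. Of these, 770 differed at least 2-fold (2.66%), 306 higher (1.06%) and 464 lower (1.6%). Without NIC pool 1 the calls numbered 503, without NIC pool 2 591, and without KI tumour 5 869, each far below the full count. Without KI tumours 1, 4 and 2 the genes called higher numbered 555, 560 and 1185. List counts given below with a sample left out are to be read beside these counts over all genes. Genes called higher made up 47% of the calls, and with quantile normalization 33.9% (324 higher and 631 lower). Of the 100 called genes named here, 15 kept their call without each of the 7 samples in turn and under every other alternative in which they were tested. They were Hspb8, Krt14, Lamb3, Mmp9 and Tnc, all higher in KI tumours, and Cabcoco1, Dkkl1, Dpyd, Egf, Gabra4, Luzp2, Mmp16, Tfap2b, Tmigd1 and Tspan8, all lower. The other named calls were lost without at least 1 pool, tumour or processing choice, and most of the 100 were lost without 1 of the pools. Only 34 of the 100 kept their call without each KI tumour in turn. The calls of Atp5g1, Foxa1, Fzd8, Igf2bp3, Inhbb, Lrp5, Lss and Rpl10 were lost whichever KI tumour was left out. Of the 100 genes, 41 have further probes, and in 30 of these at least 1 further probe showed under 50% of the difference. In 6 (Afdn, Egr3, Fzd8, Hk1, Ltbp1 and Mxd1) a further probe differed in sign. The samples of both groups did not overlap for 9005 genes (31.1%), 4741 with KI above (16.4%) and 4264 with KI below (14.7%).

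**Figure D1:**
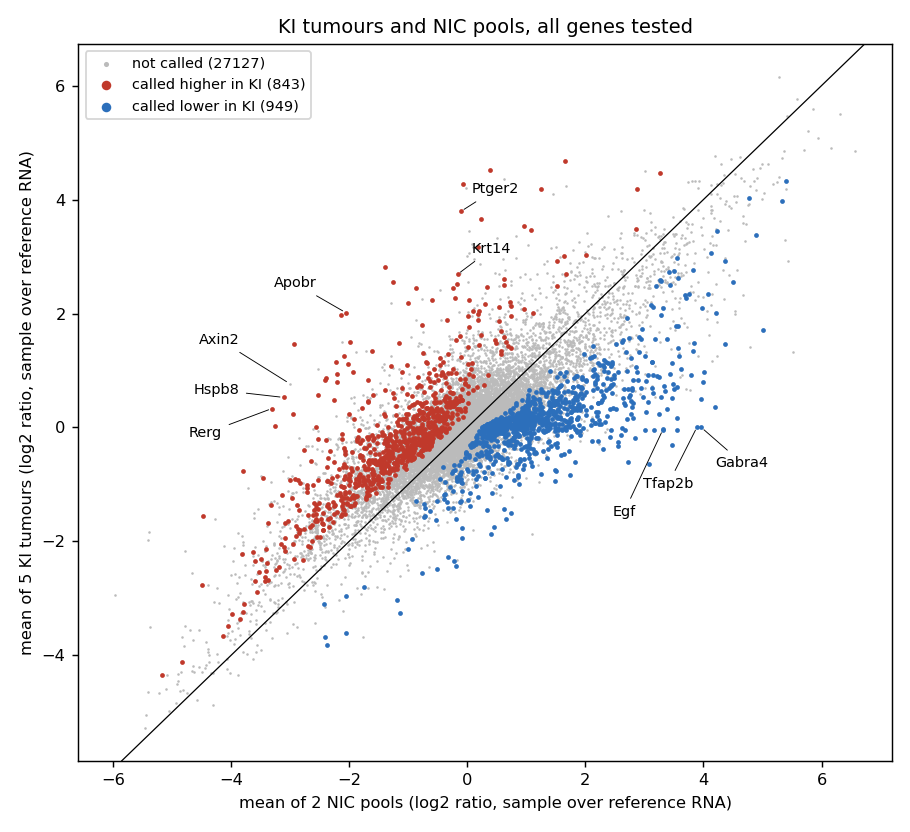
Mean log2 ratio (sample over reference RNA) of the 5 KI tumours (vertical axis) against that of the 2 NIC pools (horizontal axis) for all 28919 genes, with the line of equality; red points are the 843 genes called higher and blue points the 949 called lower in KI tumours, and grey points the rest. Of the genes called lower, 46.8% had a KI mean within 0.25 of 0, against 24.4% of those called higher and 61.1% of all genes.

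Across all genes, which do not count as independent replicates, correlations of samples ran from 0.709 to 0.894 between KI tumours, from 0.621 to 0.791 between a KI tumour and a NIC pool, and reached 0.935 between the pools. KI tumour 1 stood farthest from the pools (0.641 and 0.621) and KI tumour 2 nearest to pool 1 (0.791). The SD over KI tumours exceeded that over NIC pools for 19513 genes, with medians of 0.154 and 0.096. A pool averages its 5 tumours, so the SD of the pools says nothing of the spread among single NIC tumours. Pooling averages RNA before the log is taken, whereas KI log2 ratios were averaged over tumours, and its effect on the differences was not tested. As a check of the tissue, Krt8 and Krt18, keratins of luminal epithelial cells, stood above the reference RNA in all 7 samples, as did the epithelial cadherin gene Cdh1 (5.36, 5.62, 5.70, 5.34 and 5.30; 5.40 and 5.45). The mean of 3 neutrophil markers (S100a8, S100a9, Csf3r) was 3.50, 0.60, 3.60, 2.97 and 4.01 in KI tumours against 0.25 and 0.46 in NIC pools. Fibroblast and macrophage markers overlapped between the groups (fibroblast mean −2.43 to −0.38 in KI, −2.47 and −1.17 in NIC; macrophage mean 0.13 to 1.15 in KI, 0.49 and 0.55 in NIC), as did those of endothelium, adipocytes and Schwann cells. Means of the luminal, basal, lymphocyte and muscle markers lay higher in every KI tumour than in either pool. Luminal means were 2.51 to 2.88 against 1.97 and 2.39, and basal means 0.46 to 1.88 against −0.23 and −0.13. Lymphocyte means were −2.25 to −1.65 against −2.55 and −2.70. Muscle means were −1.49 to 0.69, with KI tumour 2 highest, against −2.17 and −2.03. Taken singly, 1 of 5 luminal, 1 of 4 basal, 2 of 4 lymphocyte and 2 of 3 muscle markers did so, against 16.4% of all genes. Another luminal marker, 1 of the 5, lay below both pools in every KI tumour. The luminal and basal means include Krt19 and Krt14, which are described below. The 1 measured blood marker lay lower in every KI tumour (2.72 to 3.31 against 3.39 and 3.53). In whole tumours, fewer cells of a type and less RNA per cell cannot be told apart, and the part of cell composition in the differences below was not tested.

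The genes with the largest rises in KI tumours were led by Cyp1b1, a cytochrome P450 that oxidises oestrogens, which was 21.2-fold higher. Its values were −1.03, 3.12, 0.83, 1.99 and 2.41 in KI tumours and −2.52 and −3.36 in NIC pools (difference 4.40 ± 1.03, adjusted p = 0.0499). All KI tumours lay above both pools, and the KI values themselves spread over more than the gap. The call was lost without KI tumours 2, 3, 4 or 5 and without either pool, and a second Cyp1b1 probe differed by 0.64. Hspb8, a small heat shock protein that works with the chaperone partner Bag3, gave 0.41, 0.62, −0.11, 1.04 and 0.68 against −3.13 and −3.09 (3.64 ± 0.43, adjusted p = 0.0056). Here the 5 tumours lay close together and far above both pools. Rerg, a small GTPase related to Ras that is known for its oestrogen-responsive expression, showed the same layout with −0.22, 0.47, −0.61, 1.24 and 0.79 against −3.49 and −3.12 (3.64 ± 0.47, adjusted p = 0.00801). Ptger2, the prostaglandin E2 receptor EP2, stood at 2.71, 3.38, 3.70, 4.56 and 4.61 against −0.23 and 0.02 (3.90 ± 0.54, adjusted p = 0.0101). Its ratios were near 0 in the pools and high in each tumour.

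Other genes of this group showed wider spread or came from metabolism and secretion. Pdk4, a kinase that shuts pyruvate out of oxidation, measured 4.53, 2.12, 1.36, 0.71 and 1.11 against −2.20 and −2.07 (4.10 ± 0.93, adjusted p = 0.0471), with KI tumour 1 above the other tumours. Apobr, a receptor for apolipoprotein B48, gave 2.02, 2.42, 2.80, 0.71 and 2.12 against −2.10 and −2.01 (4.07 ± 0.55, adjusted p = 0.00937). Pcsk6, a proprotein convertase that activates growth factors of the TGF-β family, rose by 3.49 ± 0.49 (adjusted p = 0.0108; second probe 1.17). Kng1, the precursor of bradykinin, rose by 3.42 ± 0.60 (adjusted p = 0.0211), although its other probe differed by only 0.47. Gvin1, an interferon-inducible GTPase, rose by 3.81 ± 0.77 (adjusted p = 0.0342), with 0.75 and 4.02 by the 2 further probes. S100a8 and Egr2, also among the leading genes, are described with the neutrophil and immediate early genes. The call of Pdk4 was lost when any of 6 of the 7 samples was left out.

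The genes with the largest falls had ratios far above 0 in the NIC pools and, for most of them, near or below 0 in KI tumours. Tfap2b, the transcription factor AP-2β of the mammary luminal lineage, had the smallest adjusted p of all named genes. It stood at −0.06, −0.13, −0.05, 0.25 and 0.04 in KI tumours and 3.96 and 3.82 in NIC pools (−3.88 ± 0.11, adjusted p = 4.16e-05), and its second probe differed by −0.86. Gabra4, a subunit of the GABA-A receptor, gave −0.07, −0.09, −0.10, 0.25 and 0.02 against 3.77 and 4.16 (−3.96 ± 0.13, adjusted p = 7.55e-05). In both genes the 5 tumours lay between −0.13 and 0.25 and both pools far above them. Dpyd, the enzyme that degrades uracil and 5-fluorouracil, stood at −0.09, 0.99, −0.04, 0.92 and −0.01 against 4.27 and 4.13 (−3.85 ± 0.38, adjusted p = 0.00373), with KI tumours 2 and 4 above the rest. Tspan8, a tetraspanin of epithelial cells that also marks a group of mammary stem cells, gave 0.03, 0.50, −0.41, −0.51 and −1.17 against 3.52 and 3.41 (−3.78 ± 0.44, adjusted p = 0.00541).

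Egf, the growth factor that binds EGFR, belonged to the same group with −0.41, 0.93, −0.35, −0.17 and −0.18 against 3.19 and 3.44 (−3.35 ± 0.35, adjusted p = 0.0041). KI tumour 2 stood above the other tumours for Egf and still far below the pools. Luzp2 fell by 3.60 (second probe −0.11, not called), Tmigd1 by 3.46, Cabcoco1 by 3.33 and Agt, the precursor of angiotensin, by 3.38 on the log2 scale. Fetub, a liver-type protease inhibitor of the cystatin family, gave −0.25, −1.73, 0.91, −0.48 and −1.64 against 1.93 and 4.23, so that the pools themselves differed by more than 2 log2 units. The same was true of Scgb1b27, a secretoglobin, with 1.86 and 4.17 in the pools and between −0.11 and 0.08 in the tumours. Tesc, a calcium-binding protein, fell by 3.32 and ranged from −1.69 to 0.99 in KI tumours, and its second probe differed by only −0.05. On the KI arrays the probes of Cabcoco1, Tmigd1, Agt, Scgb1b27, Dpyd, Gabra4, Luzp2 and Egf were dim, between the 7.8 and 28.3 percentile of mean signal. Even so, each was well above background in the tumour channel on all 10 KI arrays, except Cabcoco1, which was on 6. Where KI ratios stayed near 0 their spread was small (SD 0.03 for Luzp2 and 0.15 for Gabra4), and that spread enters the printed standard errors. Whether low signal made these falls smaller, or their spread narrower, than in the tissue was not tested. Signal levels of the NIC arrays were not used here. Tspan8 and Tfap2b were brighter, at the 63.6 and 45.1 percentile.

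**Figure D2:**
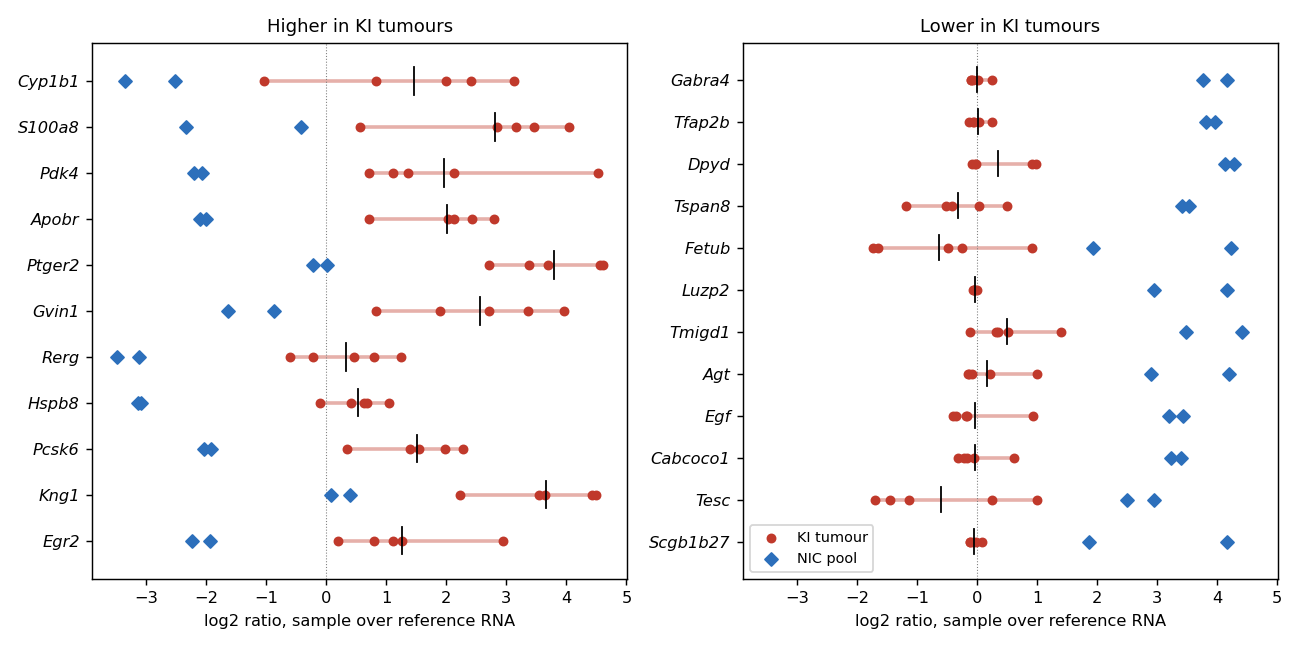
Log2 ratios (sample over reference RNA) of 11 named genes with the largest rises (left) and the 12 with the largest falls (right); red circles are the 5 KI tumours with their range as a bar and their mean as a black tick, and blue diamonds are the 2 NIC pools. The groups do not overlap for any of the 23 genes, as the naming rule required, and the KI values of Gabra4, Tfap2b and Luzp2 lie close to 0.

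Mouse Erbb2 itself gave different answers by probe. By the probe with the highest signal, Erbb2 did not pass the test: 0.83, 0.70, 1.01, 0.81 and 0.30 in KI tumours against 0.39 and 0.81 in NIC pools (0.13 ± 0.20, adjusted p = 0.772). A second probe gave 2.04, 3.41, 4.22, 3.88 and 4.02 against 1.82 and 1.68, a difference of 1.76 ± 0.54 that was not called over all 41174 probes (adjusted p = 0.101). The remaining probe differed by −0.03. Both of the other probes read the same samples, so probe choice decides whether Erbb2 appears level or higher in KI tumours 2 to 5. The NIC transgene is a rat sequence, and how each mouse probe reads it was not tested.

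Several genes that neighbour Erbb2 on chromosome 11 rose in KI tumours, and the stretch with high values differed between tumours. Of 44 measured genes of the stretch, Erbb2 included, 5 rose (11.4%, against 2.92% of all genes) and 0 fell, 37 lay above 0 and the median difference was 0.39, against 0.0034 over all genes. Pgap3, which remodels GPI anchors and lies next to Erbb2 on one side, gave 2.36, 3.04, 4.70, 3.49 and 3.72 against 0.95 and 1.21 (2.39 ± 0.54, adjusted p = 0.0454). Grb7, an adaptor that binds ErbB2 and is co-amplified with it in breast cancer, gave 4.13, 4.56, 4.34, 3.76 and 4.13 against 2.62 and 3.13 (1.31 ± 0.24, adjusted p = 0.024). Mien1, between Erbb2 and Grb7, gave 3.04, 3.30, 3.03, 2.71 and 2.96 against 1.27 and 2.02 (1.37 ± 0.23, adjusted p = 0.0189). For these 3 genes all 5 tumours lay above both pools. The tumour channel was saturated on 5 of the 10 KI arrays for Mien1, 4 for Grb7, 3 for Psmd3, 2 for Stard3 and 1 for Med1, so their KI ratios may be understated and their spread over tumours too small. Zpbp2 rose by 1.67 ± 0.33 (second probe 0.21) with KI tumour 1 lowest at 0.31, and Igfbp4, which binds insulin-like growth factors, by 1.41 ± 0.28. Without NIC pool 1 none of the 44 was called, without KI tumour 5 only Mien1 was, and without NIC pool 2, KI tumour 3 and KI tumour 4 the calls numbered 1, 3 and 2.

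Beyond this core the tumours parted. Stard3, a cholesterol transporter of late endosomes, stood at 1.44, 3.08, 4.21, 3.81 and 3.50 against 0.92 and 1.13 and did not pass the test (2.18 ± 0.67, adjusted p = 0.106). It was high in KI tumours 2 to 5 and near the pools in KI tumour 1. On the proximal side, Fbxl20 and Med1, a subunit of Mediator, were highest in KI tumour 2 (3.96 and 4.50, against at most 1.15 and 2.32 in the other tumours). Cdk12, a kinase of transcription elongation, was highest in KI tumour 3 (0.29, 2.02, 3.40, −0.01 and 0.17; −0.13 and −0.50 in the pools). On the distal side, Psmd3, a subunit of the proteasome, and Med24 were high in KI tumours 3 and 5 (2.65 and 2.69 for Psmd3, 2.92 and 2.76 for Med24) and at most 0.83 in the other 3. Cdc6, a licensing factor of DNA replication, was high in KI tumour 5 alone among KI tumours (−1.03, −0.60, −1.43, −0.87 and 1.44). Csf3, the cytokine G-CSF, followed the same tumours and KI tumour 1 besides (3.93, 0.01, 5.36, 0.87 and 5.13; −0.00 and 0.07 in the pools), and was not called (3.03 ± 1.51, adjusted p = 0.298). Stac2, next to Fbxl20, went the other way without passing the test (0.54, −1.31, 2.25, 2.47 and 1.47 against 3.30 and 3.07). DNA copy number was not measured on these arrays.

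**Figure D3:**
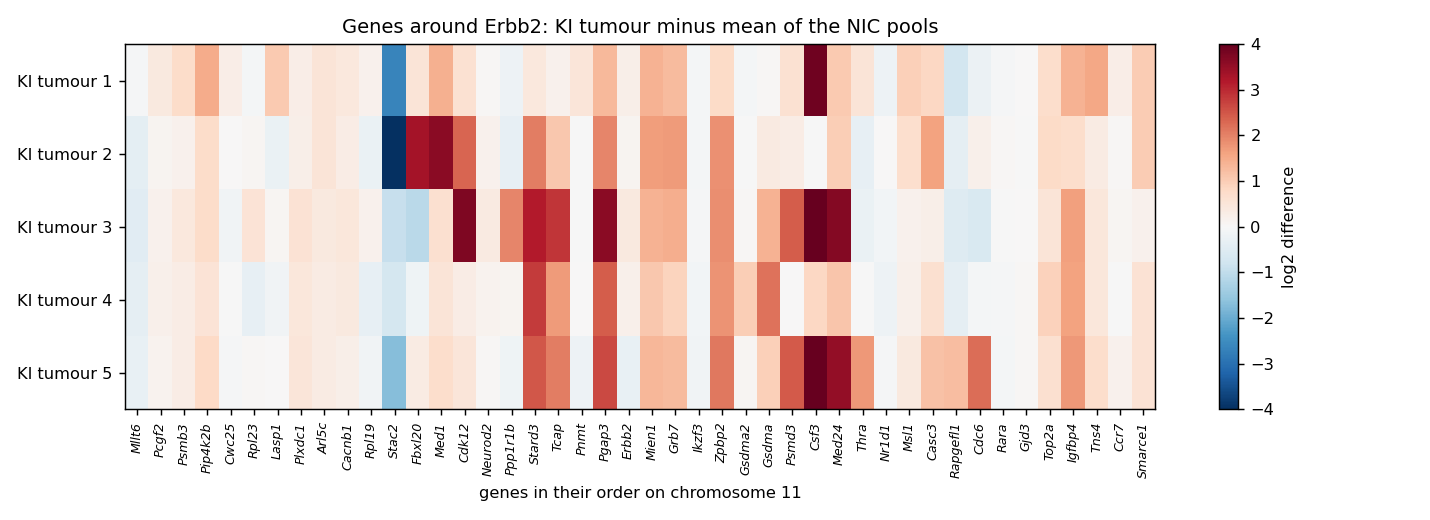
Log2 difference of each KI tumour (rows) from the mean of the NIC pools for 44 genes around and including Erbb2 in chromosomal order (columns, not to scale of distance); red is higher and blue lower than the pools, and the colour scale ends at 4. Stard3 and Pgap3 are high in KI tumours 2 to 5, Fbxl20 and Med1 in KI tumour 2, Cdk12 in KI tumour 3, and Psmd3 and Med24 in KI tumours 3 and 5.

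A scan of medians over 15 consecutive genes, added after the region had been seen and run at this single window size over 11572 named genes above the median signal, placed the stretch from Cacnb1 to Med24 first (median difference 1.31; 0.51, 1.66, 1.39, 0.51 and 0.94 in the 5 tumours). The next, from Krt36 to Acly, also lies on chromosome 11 (median 1.07).

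Among ErbB receptors and ligands, Egf was the only one of 17 measured genes to pass the test (5.88% called lower, against 3.28% of all genes). Egfr gave −1.46, −0.64, 0.00, −0.39 and −0.68 against 0.36 and 0.11 (−0.87 ± 0.40, adjusted p = 0.257) and was not called, although all 5 tumours lay below the pools. Of its 5 further probes, 2 were called lower over all probes (−0.93, adjusted p = 0.0146, and −0.97, adjusted p = 0.0488), and the other 3 differed by −0.20 to −0.02. Areg, the EGFR ligand amphiregulin, stood at 2.98, −1.80, 2.19, 2.63 and 1.48 against −2.03 and −2.21. KI tumour 2 was near the pools and the other 4 were far above them, and the difference of 3.62 ± 1.18 did not pass the test (adjusted p = 0.125). Hbegf, another EGFR ligand, showed the same pattern (1.04, −1.34, 0.89, 1.03 and 0.57; −2.29 and −1.55). Among 18 measured ERK feedback genes and PEA3 factors, Etv1, an ETS factor that ERK activates, fell to −1.53, −0.60, 0.78, 0.76 and −1.07 from 2.63 and 2.47 (−2.88 ± 0.65, adjusted p = 0.046). It was lowest in KI tumours 1 and 5 and highest in KI tumours 3 and 4. No other member of that list was called, so that 5.56% of it was called lower, against 3.28% of all genes.

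Wnt and β-catenin genes were examined because the title of the series names this pathway. Of 35 measured feedback genes and targets, 2 rose (Tcf7 and Tcf7l1) and 0 fell, with a median difference of 0.33. That is 5.71% of the list, against 2.92% of all genes called higher, and the list held 0 calls higher without either pool, 1 without KI tumour 3 or KI tumour 5, and 7 without KI tumour 2. Axin2, the feedback scaffold of the destruction complex that β-catenin induces, had the largest difference of the list. It stood at −1.61, 1.37, −0.53, 2.52 and 2.11 in KI tumours and −3.05 and −2.97 in NIC pools. Every tumour lay above both pools, KI tumours 2, 4 and 5 by more than 4 log2 units and KI tumours 1 and 3 by less than 3. With this spread the difference of 3.78 ± 1.09 was not called (adjusted p = 0.0899). It was called without KI tumour 1 (4.37, adjusted p = 0.0382) and under 3 of the processing choices. Over its alternatives Axin2 kept a difference between 3.34 and 4.37, with adjusted p between 0.00256 and 0.34.

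Tcf7, the TCF1 factor that pairs with β-catenin and is itself a Wnt target, gave −1.55, −2.39, −2.12, −0.62 and −1.13 against −4.41 and −4.52 (2.91 ± 0.49, adjusted p = 0.0185; other probe 1.22). Tcf7l1, the TCF3 factor that mostly represses, gave 0.74, 1.21, 0.64, 0.30 and 1.29 against −0.63 and −0.36 (1.33 ± 0.28, adjusted p = 0.0368). Both were above the pools in all 5 tumours, and both calls were lost without either pool. The Tcf7 call was kept without each KI tumour in turn, whereas that of Tcf7l1 was lost without KI tumour 1, 3 or 5. Myc, a target in many tissues, stood at −0.39, 0.88, −0.75, 0.87 and 0.78 against −1.16 and −1.61 and was not called (1.66 ± 0.55, adjusted p = 0.126). It was high in KI tumours 2, 4 and 5, the same 3 in which Axin2 was highest. Ccnd1, encoding cyclin D1, overlapped between the groups (0.65, −0.98, 0.90, 0.50 and 0.03; 0.60 and 1.43). Jag1, a Notch ligand and Wnt target, differed by 3.05 (adjusted p = 0.126) and Id2, an inhibitor of differentiation, by −2.47 (adjusted p = 0.0618), neither of them called.

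Further up the pathway each list held 1 or 2 calls. Calls higher made up 4% of the ligands and 6.25% of the secreted inhibitors, against 2.92% of all genes. Calls lower made up 11.1% of the receptors, 6.9% of the destruction complex list and 6.25% of the secreted inhibitors, against 3.28% of all genes. Among 25 Wnt ligands, Wnt10b rose by 0.30 ± 0.06. Of 18 receptors, the coreceptor gene Lrp5 gave 0.70, 0.88, 1.15, 1.19 and 1.25 against 2.17 and 2.11 (−1.11 ± 0.23, adjusted p = 0.0375) and Fzd8 fell by 0.34. Of 29 genes of the destruction complex and β-catenin's partners, Amer1, a membrane anchor of APC, fell to 0.80, 0.73, 0.78, 0.79 and 0.57 from 1.51 and 1.64 (−0.84 ± 0.13), and Tle5, a Groucho-related protein, fell by 0.70. β-catenin's own gene, Ctnnb1, overlapped between the groups (1.28, 0.17, 1.84, 0.85 and 0.60; 0.79 and 0.42) and was not called (0.35 ± 0.41, adjusted p = 0.692). The 2 further Ctnnb1 probes differed by −0.52 and 0.29. Of 16 secreted inhibitors, Igfbp4 rose, while Dkkl1, a Dickkopf-like protein, fell from 1.46 and 1.10 to −0.65, −0.43, −0.37, −0.29 and −0.35 (−1.70 ± 0.14, adjusted p = 0.00237) with tumours close together. Dkk3 differed by 2.11 ± 0.54 and was not called, with KI tumour 2 alone below 0 among KI tumours. With 1 KI tumour left out, the calls of Lrp5 and Fzd8 were lost whichever tumour it was. Those of Tle5 and Wnt10b were kept only without KI tumour 3, and that of Igfbp4 only without KI tumour 2. Amer1 and Dkkl1 kept theirs without each KI tumour.

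**Figure D4:**
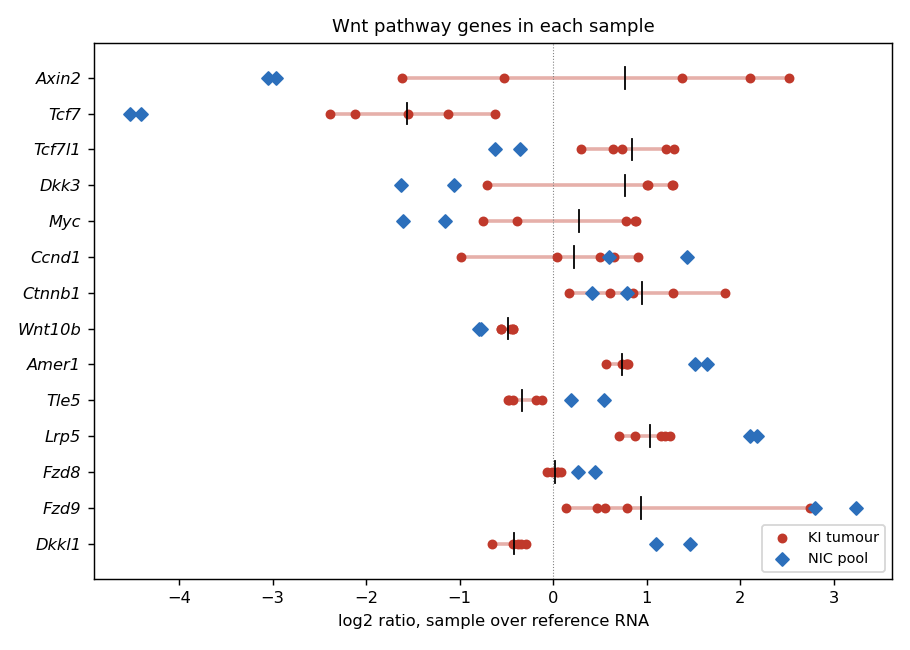
Log2 ratios (sample over reference RNA) of 14 Wnt pathway genes, with the 5 KI tumours as red circles (bar: range; black tick: mean) and the 2 NIC pools as blue diamonds. Axin2 spreads from −1.61 to 2.52 over KI tumours and stays above both pools near −3, whereas Ctnnb1 and Ccnd1 overlap.

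Keratins and lineage factors of the mammary epithelium differed between the models in both directions. Of 30 basal and myoepithelial genes 3 rose (10%, against 2.92% of all genes) and 0 fell, with a median difference of 0.83. Krt14, the keratin of basal cells, was 7.22-fold higher: 2.99, 2.41, 2.86, 2.48 and 2.71 in KI tumours against −0.12 and −0.20 in NIC pools (2.85 ± 0.23, adjusted p = 0.00237). The 5 tumours lay between 2.41 and 2.99 and both pools below 0. Its usual partner Krt5 did not follow, with 0.19, 0.16, 2.06, 2.49 and 2.07 against 0.68 and 0.35 (0.88 ± 0.70, adjusted p = 0.525). KI tumours 3 to 5 were above the pools and KI tumours 1 and 2 below them. Lamb3, a chain of the laminin of the epithelial basement membrane, gave 2.91, 2.88, 2.01, 2.32 and 2.42 against −0.31 and −0.03 (2.68 ± 0.27, adjusted p = 0.004). Pdpn, the membrane glycoprotein podoplanin, rose by 1.02 ± 0.16. The list held 7 calls higher without KI tumour 2, where calls higher over all genes rose from 843 to 1185. Of its calls, only those of Krt14 and Lamb3 were kept without either pool.

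The luminal list held calls both ways, 3 higher and 6 lower of 32 (9.38% and 18.8%, against 2.92% and 3.28% of all genes), with a median of −0.21. Calls higher numbered 0 without NIC pool 1 or KI tumour 5, 1 without KI tumour 1 and 5 without KI tumour 2. Calls lower numbered 2 without NIC pool 2 or KI tumour 5, 3 without NIC pool 1 or KI tumour 4, and 4 without KI tumour 1 or 2. Besides Tfap2b, falls were seen for luminal transcription factors and receptors. Spdef, an ETS factor of secretory luminal cells, gave 0.07, −0.06, 0.29, 1.37 and 0.50 against 2.26 and 3.36 (−2.38 ± 0.43, adjusted p = 0.0234), and its probe was dim on the KI arrays (14.3 percentile). Foxa1, the pioneer factor of hormone-sensing cells, gave −1.29, −1.47, −1.09, −1.32 and −1.10 against −0.74 and −0.03 (−0.87 ± 0.20, adjusted p = 0.0484). The Foxa1 call was lost with KI values from scanner intensities or from the scanner software, and whichever KI tumour was left out. Its difference ran from −1.71 to −0.03 over the alternatives. Prlr, the prolactin receptor, gave 0.17, 0.42, 0.32, 0.21 and 0.12 against 1.27 and 0.92 (−0.85 ± 0.12, adjusted p = 0.0113), with −0.61 and −1.15 by the further probes. Kit, a receptor of luminal progenitors, fell by 0.74 and Rab25, a GTPase of epithelial recycling, by 0.73. Krt19 and Elf3 were among those that rose. Krt19, a simple-epithelium keratin, gave 2.32, 3.33, 1.49, 1.36 and 2.46 against −1.90 and −0.09 (3.19 ± 0.64, adjusted p = 0.033), with the pools well apart. The ETS factor gene Elf3 rose by 1.28 ± 0.24. Krt8, Krt18, Esr1 and Pgr (the oestrogen and progesterone receptor genes) overlapped between groups and were not called.

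Junction genes held calls in both directions. The tight junction list had 3.03% called higher and 9.09% lower, against 2.92% and 3.28% of all genes. Of 33 tight junction genes, Cldn2, a claudin that forms cation pores, fell from 3.85 and 3.83 to 0.39, 1.82, 0.93, 2.19 and 2.06 (−2.36 ± 0.48, adjusted p = 0.0343). Cgnl1, the junction linker paracingulin, fell by 1.43 and Ovol2, a repressor of mesenchymal genes, by 0.63, while Pard6b, a polarity protein, rose by 1.82 ± 0.32. Cdh1 itself differed by 0.04 ± 0.12 (adjusted p = 0.895), and with KI values from scanner intensities it was called lower (−0.39). Of 24 genes of epithelial-mesenchymal transition, 3 rose (12.5%, against 2.92% of all genes) and 20 lay above 0 (median 0.54). Among the 3, Foxc2 and Zeb2 rose by 1.14 ± 0.14 and 0.80 ± 0.12 from low ratios. The list held 0 calls with quantile normalization or without NIC pool 1, and 1 without NIC pool 2. Vim, encoding vimentin, overlapped (−0.68, −2.16, 0.30, −1.44 and −0.88; −1.63 and −1.85). Of 28 Notch genes 3 rose and 1 fell (10.7% and 3.57%, against 2.92% and 3.28% of all genes). The coactivator Maml1, the glycosyltransferase Lfng and the DNA-binding Rbpj rose by 1.20 ± 0.20, 0.99 ± 0.15 and 0.86 ± 0.18, and the receptor Notch1 fell by 0.53. Maml1, Lfng and Rbpj lost their calls without either pool, as most named calls did. Without KI tumour 2, 5 Notch genes were called higher, where calls higher over all genes rose from 843 to 1185. Hey1, a Notch target, gave 1.07, −0.41, 3.57, 2.42 and 0.43 against 4.77 and 4.81 and was not called (−3.38 ± 0.97, adjusted p = 0.0899).

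Genes of the matrix and its proteases were mostly above 0. The list of proteases and inhibitors had 6.06% called higher and 3.03% lower, against 2.92% and 3.28% of all genes. Of 44 fibroblast and matrix genes 39 lay above 0 (median 0.77), and 1 was called (2.27%, against 2.92% of all genes). Without KI tumour 2 the calls of this list numbered 12, where calls over all genes rose from 1792 to 2101. Its median was 1.06 without NIC pool 1 and 0.41 without NIC pool 2. The gene called in the full fit, Tnc, encodes tenascin C, a matrix protein of remodelling tissue. It gave 1.64, 0.29, 1.37, 0.79 and 0.58 against −2.01 and −2.38 (3.13 ± 0.36, adjusted p = 0.00541). The further Tnc probes gave 0.14 and 0.65. Of 33 matrix proteases and inhibitors, Mmp9, the gelatinase B, gave −0.69, −1.38, −1.15, −0.71 and −0.63 against −3.09 and −2.74 (2.00 ± 0.22, adjusted p = 0.00497) and Plau (urokinase) rose by 0.51 ± 0.10. Mmp16, a membrane-type metalloproteinase, fell from 2.52 and 2.58 to −0.10, −0.41, 0.53, −0.49 and −0.83 (−2.81 ± 0.32, adjusted p = 0.00507; second probe −0.77). Mmp13, a collagenase, was high in 4 tumours and low in KI tumour 2 (2.38, −1.91, 1.10, 2.17 and 1.48; −1.63 and −0.89) and was not called.

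Of all lists, neutrophil genes had the largest median difference. Of 28 measured, 26 lay above 0 (median 0.95), 3 were called higher and 1 lower (10.7% and 3.57%, against 2.92% and 3.28% of all genes). S100a8, a calcium-binding alarmin abundant in neutrophils, gave 2.84, 0.56, 3.46, 3.15 and 4.04 against −2.34 and −0.43 (4.19 ± 0.95, adjusted p = 0.046). Its partner S100a9 stood at 4.97, 0.51, 5.29, 4.45 and 5.24 against 1.89 and 1.02 and was not called (adjusted p = 0.277). Il1rn, the antagonist of the interleukin 1 receptor, gave 1.30, −0.00, 1.62, 1.71 and 1.10 against −0.71 and −0.69 (1.84 ± 0.42, adjusted p = 0.0481). Cxcl5, a chemokine that attracts neutrophils, ran from −5.17 in KI tumour 2 to 1.84 in KI tumour 1, against −5.35 and −5.42 in the pools, and was not called (3.55 ± 1.54, adjusted p = 0.23). In each of these genes but Il1rn KI tumour 2 was the lowest by more than 2 log2 units. Without it 1185 of all genes were called higher, against 843 in the full fit, and so were 7 neutrophil genes. Leaving out any other tumour or either pool left 1. Cd177, a neutrophil surface protein, went the other way, from 1.99 and 2.93 to −0.04, 0.69, 0.68, −0.14 and 0.54 (−2.11 ± 0.33, adjusted p = 0.0139). Of 39 macrophage genes Cd14, a coreceptor for lipopolysaccharide, rose (1.72 ± 0.30, 2.56% of the list). Of 44 interferon response genes 0 rose and Ifi27 fell (−1.16 ± 0.21, 2.27% of the list). Both shares are below those of all genes. Of 16 MHC genes 0 were called.

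Immediate early genes, which cells switch on within minutes of a stimulus, held the largest share of rises of any list with more than 30 measured members. Of 34 stress and immediate early genes, 6 rose (17.6%, against 2.92% of all genes) and 1 fell, with a median of 0.16. Egr2, a zinc finger factor, gave 1.27, 0.20, 2.94, 1.12 and 0.79 against −1.93 and −2.24 (3.35 ± 0.72, adjusted p = 0.0407). Egr1 gave −1.42, −0.64, −1.64, −1.37 and −1.13 against −2.92 and −3.02 (1.73 ± 0.33, adjusted p = 0.0298), and Egr3 rose by 3.24 ± 0.52, although a second Egr3 probe differed by −0.09. Fos, a subunit of AP-1, and the stress factor gene Atf3 rose by 1.11 ± 0.22 and 1.58 ± 0.30. Hsph1, a large heat shock protein that recharges Hsp70, gave 0.58, −0.18, 0.57, 0.24 and −0.23 against −0.88 and −1.91 (1.59 ± 0.34, adjusted p = 0.0409). Herpud1, induced by stress of the endoplasmic reticulum, fell by 1.29. The list held 0 calls higher without NIC pool 1, 1 without NIC pool 2 or KI tumour 4, 2 without KI tumour 1, 3 without KI tumour 5 and 4 without KI tumour 3. With quantile normalization it held 2.

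Sequences upstream of 4 genes are printed because they come from the lists with the largest share of calls in 1 direction, Egr2 and Hsph1 from the stress list and Tfap2b and Spdef from the luminal list. Each is the 250 bases before the start of transcription in RefSeq (GRCm38.p6), 5′ to 3′ on the gene's strand. Capitals mark a CArG box, the site of serum response factor, in Egr2 (chr10:67537316-67537565, plus strand), and the core ACGTG of hypoxia response elements on either strand in Hsph1 (chr5:149636316-149636565, minus strand) and Spdef (chr17:27728952-27729201, minus strand). In Tfap2b (chr1:19211804-19212053, plus strand) none of the motifs searched was found.
Egr2: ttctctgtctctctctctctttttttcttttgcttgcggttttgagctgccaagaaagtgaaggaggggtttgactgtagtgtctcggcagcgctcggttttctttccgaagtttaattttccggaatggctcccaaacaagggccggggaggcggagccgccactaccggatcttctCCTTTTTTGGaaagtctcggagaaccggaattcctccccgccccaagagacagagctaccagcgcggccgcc
Hsph1: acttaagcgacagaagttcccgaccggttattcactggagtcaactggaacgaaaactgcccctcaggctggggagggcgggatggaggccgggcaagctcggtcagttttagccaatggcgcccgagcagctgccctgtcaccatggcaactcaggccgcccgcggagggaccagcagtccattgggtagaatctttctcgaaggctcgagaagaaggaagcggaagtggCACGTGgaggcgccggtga
Tfap2b: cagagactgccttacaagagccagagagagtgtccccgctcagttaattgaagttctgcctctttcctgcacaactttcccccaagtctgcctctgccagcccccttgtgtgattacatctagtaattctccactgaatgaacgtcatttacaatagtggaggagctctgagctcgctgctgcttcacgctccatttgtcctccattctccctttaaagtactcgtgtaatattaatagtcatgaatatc
Spdef: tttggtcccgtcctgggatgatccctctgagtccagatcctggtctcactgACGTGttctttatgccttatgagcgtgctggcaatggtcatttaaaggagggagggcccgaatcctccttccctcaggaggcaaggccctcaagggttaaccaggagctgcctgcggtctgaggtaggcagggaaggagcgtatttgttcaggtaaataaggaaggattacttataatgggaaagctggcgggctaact
The CArG box lies in 4 of the 5 starts that the table lists for Egr2, and the ACGTG core in 1 of the 2 starts of Hsph1, where 2 overlapping matches on opposite strands make up the capitals. For Egr2 and Hsph1, with several starts each, the one printed is the first listed with a match, so it was chosen for that match.

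In all, 8 motifs were searched on both strands of the upstream 250 bases, 6 chosen with the gene lists and 2 (the CArG box and the heat shock element) added after the stress genes had been seen. The CArG box was present upstream of 1.47% of 15149 measured genes with an entry, 1.89% of those called higher and 2.58% of those called lower. It was present in 6.45% of the stress list (2 of 31), 4.55% of the luminal list and 12% of the Wnt targets (3 of 25). One exact spelling of it, the CArG flank, was found in 0.0858% of all genes and in none of the stress list. An exact pattern for the heat shock element was found in 0.475% of all genes and in 0 of 31 of the stress list. Sites that depart from that pattern were not counted, among them a near match in the printed Hsph1 sequence. The 0 therefore does not show that the stress genes lack heat shock elements. ACGTG was found in 21.4% of all genes, 23.1% of those called higher and 22.5% of those called lower. Among the lists it was found in 45.2% of the stress list (14 of 31), 32% of the Wnt targets and 13.6% of the luminal list. The TCF/LEF motif TTCAAAG stood in 4.56% of all genes, 4.55% of those called higher, 4.06% of those called lower and 0 of 25 Wnt targets. Shares for the ETS core CCGGAAGT (4.69% of all, 3.22% of those higher, 3.87% of those lower) and TTTGAA (15.5%, 15.3% and 12.4%) were close to those of all genes. The interferon-stimulated response element (ISRE) stood in 3.35% of all genes and in 42.4% of the interferon list, of which 0 genes rose. A match describes these letters in this window and no more.

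Calls in the metabolic lists were mostly lower in KI tumours. Of 34 genes of fatty acid and sterol synthesis 3 fell (8.82%, against 3.28% of all genes) and 0 rose: Me1, the malic enzyme that supplies NADPH (0.51, 1.37, 1.23, 1.15 and 0.60 against 2.50 and 2.61; −1.58 ± 0.26, adjusted p = 0.0172), the sterol carrier gene Stard4 (−1.41 ± 0.30) and the lanosterol synthase gene Lss (−0.79 ± 0.18). Srebf1, the regulator of lipid synthesis, was below the pools in all 5 tumours and not called (−2.08 ± 0.54, adjusted p = 0.068). Without either pool 0 of the 34 were called, 1 was called lower without KI tumour 4 or 5, and 5 without KI tumour 3. Of 36 hypoxia and glycolysis genes, hexokinase 1 (Hk1) and carbonic anhydrase 9 (Car9) fell by 1.15 and 0.97, and Ndrg1 rose by 1.53 ± 0.29. These shares (5.56% lower and 2.78% higher) are near those of all genes. Without either pool or KI tumour 5 the hypoxia list held 0 calls. Its calls lower numbered 0 without KI tumour 4, 1 without KI tumour 2 and 4 without KI tumour 3. Another carbonic anhydrase gene, Car8, gave 0.27, 0.14, 5.62, 0.36 and 0.21 against 5.85 and 5.18, so that KI tumour 3 stood with the pools and the other 4 tumours near 0. Proliferation genes hardly differed: of 51 measured, 1 rose (1.96%, against 2.92% of all genes), and the median was 0.06. That gene was Birc5, the mitotic protein survivin (0.52 ± 0.12). Milk genes were not called in either direction (0 of 26), and Csn2, β-casein, and Wap overlapped between the groups.

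**Figure D5:**
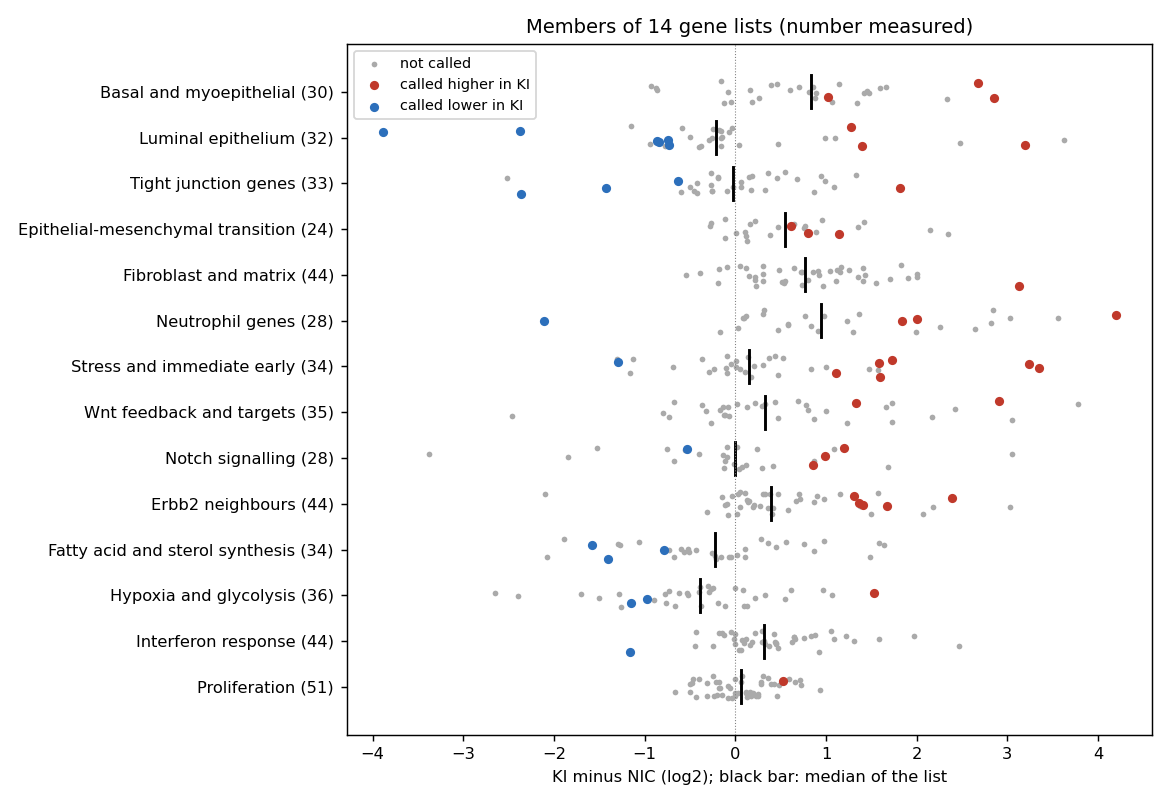
Difference of KI tumours from NIC pools (log2, horizontal axis) for each measured member of 14 gene lists, with the number of members in brackets; red and blue points were called higher and lower, grey points were not called, and black bars are list medians. The neutrophil, basal and matrix lists have medians of 0.95, 0.83 and 0.77, the hypoxia list lies lowest, and the luminal list holds calls on both sides.

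The remaining calls were spread over many lists. Of 41 lists 38 held a call, of which 29 held none without NIC pool 1, 23 without NIC pool 2, and between 5 and 15 when a single tumour was left out. Of 22 genes of the insulin-like growth factor system 3 rose (13.6%, against 2.92% of all genes) and 1 fell, among them the RNA-binding proteins Igf2bp3 and Igf2bp1 (0.85 ± 0.19 and 0.56 ± 0.10) and, lower, the adaptor gene Grb10 (−2.84, −3.37, −2.02, −1.84 and −2.32 against −0.33 and −0.69; −1.97 ± 0.45). Without either pool or KI tumour 4 this list held 0 calls, 1 was called higher without KI tumour 1, 3 or 5, 5 without KI tumour 2, and 0 with quantile normalization. Of 46 TGF-β and BMP genes 3 rose, the latent-complex protein Ltbp1 (1.58 ± 0.34), the activin receptor Acvr2a (1.55 ± 0.24) and the stress cytokine Gdf15 (0.60 ± 0.13), and the activin subunit gene Inhbb fell (−0.70 ± 0.16). Of 32 endothelial genes, Vegfc, a growth factor of lymphatic vessels, rose by 1.93 ± 0.42. Of 26 cadherins and catenins, the desmosomal gene Pkp1 and the junction scaffold gene Afdn rose by 1.98 ± 0.40 and 0.73 ± 0.14. Calls higher made up 6.52% of the TGF-β and BMP genes, 6.25% of the endothelial genes and 7.69% of the cadherins and catenins, against 2.92% of all genes. Calls lower made up 2.17% of the TGF-β and BMP genes, against 3.28% of all genes.

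Of 24 skeletal muscle genes 2 rose, Des, encoding the intermediate filament desmin, with −1.75, −1.10, −2.14, −2.05 and −1.38 against −3.43 and −3.33 (1.69 ± 0.28, adjusted p = 0.0173) and the troponin gene Tnnt1 by 0.57 ± 0.11. For Des all 5 tumours lay above both pools, and all 7 samples lay below the reference RNA. Of 40 lymphocyte genes the T cell surface protein gene Cd5 and the B cell receptor subunit gene Cd79b rose by 0.72 ± 0.13 and 0.48 ± 0.10. Among 26 cell cycle regulators, Mycl, a relative of Myc, and Mxd1, which competes with Myc for its partner Max, rose by 1.66 ± 0.37 and 1.12 ± 0.21 (second Mxd1 probe −0.11). The inhibitor of CDK4 and CDK6 encoded by Cdkn2c fell by 0.70. Of 18 Sox factors Sox6 fell from 2.36 and 2.24 to 0.60, 0.29, 1.45, 0.61 and 0.82 (−1.55 ± 0.34, adjusted p = 0.0422), with −0.75 to −0.08 by its further probes. Single calls higher were the glucose transporter gene Slc2a4 among 30 white adipocyte genes (1.07 ± 0.25) and the platelet glycoprotein gene Gp9 among 10 of blood and platelets (0.34 ± 0.08). Single calls lower were the ATP synthase gene Atp5g1 among 39 of oxidative phosphorylation (−0.75 ± 0.17) and Rpl10 among 40 ribosomal protein genes (−0.41 ± 0.10). Shares called higher were 8.33% of muscle, 5% of lymphocyte, 7.69% of cell cycle, 3.33% of adipocyte and 10% of blood and platelet genes, against 2.92% of all genes. Shares called lower were 3.85% of cell cycle, 5.56% of Sox, 2.56% of oxidative phosphorylation and 2.5% of ribosomal protein genes, against 3.28% of all genes. Each list share here rests on 1 or 2 genes.

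The KI tumours also differed from one another. Several of the 10 genes with the largest SD among them set KI tumour 1 apart. Wt1, a transcription factor of kidney and mesothelium, stood at 1.49, −4.43, −3.94, −4.33 and −4.11 against −4.25 and −4.31 in the pools. Cav2, a caveolin, gave 4.34, −1.33, −1.04, −0.99 and −1.83 against 0.48 and 0.37, so that KI tumour 1 lay above and the other tumours below the pools. Prl2c3, a placental hormone of the prolactin family, gave 2.89, −2.23, −2.18, −2.18 and −2.84 against −3.66 and −2.97. Cxcl11, a chemokine for T cells, was high in KI tumours 1 and 3 (5.25, −0.08, 2.57, −0.01 and 0.04; −0.31 and −0.19). KI tumour 2 was the lowest of the KI tumours for Areg, Inhba, Ly6a and Mmp13, with Inhba at −2.96 and Ly6a at −1.69 against −3.07 and −2.63 and −1.91 and −2.03 in the pools.

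By chromosome, named genes above the median signal on chromosome 1 lay higher in KI tumours. This tally was made after the window scan had shown several stretches of chromosome 1. The median difference was 0.20 over 663 genes, 66.7% of them above 0, with 33 called higher and 7 lower. It was above 0 in every tumour (0.27, 0.29, 0.13, 0.10 and 0.14). Over all 11572 such genes the median was 0.013 with 51.5% above 0, and 436 were called higher and 391 lower. With the scanner software's ratios the median of chromosome 1 was 0.18, and with quantile normalization 0.16. Chromosome 4 followed with 0.10 over 700 genes, 43 called higher and 21 lower, so its share of calls higher exceeded that of chromosome 1.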

How the data were processed

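Tumour RNA was extracted with a column kit, amplified and coupled to Cy3 or Cy5, per the labels' protocols. The authors deposited log2 ratios of sample over reference in 2 tables. RMA is named in the submitters' processing notes without its role, and how else the tables were made is not stated there. KI columns matched loess-normalized ratios from their scanner intensities at r = 0.982 to 0.988, and direction and scale of the NIC table were taken by analogy. Label fields were followed for the dyes, although on 7 KI arrays the labelling protocols state them the other way round. Scanner files of the KI arrays, written by Agilent Feature Extraction per the file headers, hold deposited spot intensities and the log10 of Cy5 over Cy3.

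Dye arrays were averaged per RNA sample (r between them 0.827 to 0.942 in KI and NIC). The 2256 control spots were left out, and 41174 probes gave 28919 genes, each by its brightest probe on the KI arrays (19100 named through RefSeq, GRCm38.p6). The number of arrays limits the precision. limma 3.58.1 in R 4.3.3 was fitted to all 9 RNA samples (two-sided; Benjamini-Hochberg; called at adjusted p under 0.05), so KI tumours, pools and glands share an estimate of the spread. The fit was tested on simulated data. Members, lists and motifs were chosen with earlier results of these data known. Named are 16 anchor genes, the 12 largest called differences each way whose groups do not overlap and whose probes share a sign, up to 4 called genes each way and the largest uncalled gene of each of 41 lists, and the 10 genes of largest KI SD; some of these are not reported here. Atf3, Fos, Grb7, Rab25, Hbegf, Jag1, Id2, S100a9, Stard3 and the other genes of the Erbb2 region were chosen after their values were seen. Alternatives covered the source and scaling of values, dye, probes, signal filters, weights, image-extraction day and each sample left out.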

Additional observations from a re-analysis of the deposited data

Results flagged for a closer look

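Among 173 genes taken by the naming rule or described above, 14 (8.09%) had a KI tumour set apart from the other 4 by a gap above Dixon's critical share of the range; chance flags about 1 in 20 groups, but that rate cannot be set against this share, because 10 of the genes were taken for their large KI SD and others after their values were seen. KI tumour 1 accounted for 6: it was high for Cav2 (4.34), Prl2c3 (2.89) and Wt1 (1.49), and low for Id2 (−1.72), Rpl22 (−0.88) and Zpbp2 (0.31). KI tumour 2 accounted for 4: it was low for Dkk3 (−0.71), Hbegf (−1.34) and S100a9 (0.51), and high for Egf (0.93). KI tumour 3 was high for Car8 (5.62), KI tumour 4 for Fzd9 (2.75) and KI tumour 5 for Cdc6 (1.44). KI tumour 5 was low for Amer1 (0.57).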

How the results depend on the processing

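The 1792 calls (843 higher, 949 lower) kept within 1.5-fold under the fit of the 7 KI and NIC samples alone, the scanner software's ratios, a shared spread, a trended prior, genes well above background and the mean of a gene's probes. KI values from scanner intensities gave 3702 calls (2000 higher, 1702 lower), of which 1739 were shared with the 1792. Treating all arrays with the RNA sample as a random block gave 4010 (2116 and 1894), and weighting the pools by their tumours 4669 (2582 and 2087). Quantile normalization gave 955 (324 and 631), genes above the median signal 883 (464 and 419, with fewer genes tested), a 2-fold minimum 770 (306 and 464), and every probe on its own 2878, of which 1633 lower. Without the 2 KI arrays of the smaller extraction day there were 1184 calls, 511 of them higher. Cy5-labelled samples alone gave 477 higher and Cy3-labelled samples alone 1381. Leaving out each sample in turn gave 503 to 2101 calls, 145 to 1185 higher and 358 to 916 lower. Where a pool was left out, the lone pool was assumed to vary like the other groups. For these changes the cause was not tested.

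Of 100 called genes named, 28 kept their call under all alternatives other than those that leave out a pool or tumour, and 15 under those too. Cdh1 turned to −0.39 with scanner intensities and Cd79b to −0.0122 with quantile normalization. No paired analysis was possible because KI tumours and NIC pools share no replicate number in the labels. At low signal a ratio near 0 limits what can be measured. The probe of 183 genes was not well above background on KI arrays, 1 of them called.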
